A study of Mus musculus with 15 samples.

Results

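The small leucine-rich proteoglycans are secreted matrix proteins built of leucine-rich repeats, and 9 of their genes were followed here through untreated and cytokine-treated Mouse Embryonic Fibroblasts (MEFs): *Dcn*, *Bgn*, *Aspn*, *Fmod*, *Lum*, *Prelp*, *Omd*, *Ogn* and *Podn*. A probe belonged to the set if it was not a control spot and carried a RefSeq transcript of 1 of these genes, which gave 10 probes of the 56605 on the array, for 9 of 23462 named genes. *Prelp* had 2 probes and each other gene 1. MEFs of the established Balb/c 3T3 clone A31 line, so cells of 1 clone, were left untreated (control) or received TNFα at 10 ng/ml, TGFß1 at 5 ng/ml, IL-1β at 1 ng/ml, or IL-6 at 20 ng/ml together with sIL-6Rα, its soluble receptor, at 25 ng/ml. RNA of 3 cultures a group was hybridized to 15 one-color microarrays, and the study describes biological replicas from 3 independent experiments. TNFα, TGFß1 and control cultures were taken at 24 h, and the labels leave the time of the IL-1β and IL-6 arrays at 24 or 72 h. Arrays are named by condition plus the number at the start of the label.

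In connective tissue these proteins sit on collagen fibrils, where they govern how fibrils grow in width and how they are spaced, and most carry chondroitin, dermatan or keratan sulfate chains. They also bind growth factors, TGFß among them, and when they are shed from the matrix decorin and biglycan act as ligands of Toll-like receptors on inflammatory cells. Decorin, biglycan and asporin form class I, fibromodulin, lumican, PRELP and osteoadherin (*Omd*) class II, osteoglycin (*Ogn*) belongs to class III, and podocan (*Podn*) to a later, non-canonical class.

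Levels are log2 of the processed signal minus the 75th percentile of the array, so a level can be compared between arrays for 1 probe and never between probes. That percentile lay between 508 and 683 units of brightness, 48.3% to 54.9% of probes an array were well above background, and no spot was saturated. A gene was called, in limma over the 29334 probes tested, where its Benjamini-Hochberg q-value was under 0.05 and its change in either direction was 1.5-fold or more. The arrays lay on 2 slides, and the label numbers form 3 runs (1 to 5, then 6 to 10, then 11 to 15) in which every group has 1 array, although no label says that a run is an experiment. For the 9 genes, values from a fit with slide and run as blocks are given where they change a call, and for the lists of other genes the counts under that fit are given. All comparisons with control share the same 3 control arrays. All 9 fibroblast marker genes were well above background on all 15 arrays, whereas markers of other cells were mixed. Of 6 macrophage markers *Csf1r*, *Cd68* and *Itgam* were so on all 15 and *Ptprc*, *Adgre1* and *Lyz2* on none. Of 5 endothelial markers *Pecam1* was so on all 15 and *Cdh5*, *Tek*, *Kdr* and *Emcn* on none. Of 6 epithelial markers *Krt18* was so on 10 arrays, *Krt8* on 4, *Krt14* on 3, *Epcam* on 1, and *Cdh1* and *Krt5* on none. *Cxcl1*, a chemokine of the inflammatory response, was higher by 3.64 (log2) with TNFα and 4.14 with IL-1β, and *Socs3*, a STAT3 target, by 2.39 with IL-6 and sIL-6Rα, each called.

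TNFα moved the family in both directions. Of the 9 genes, all tested, *Dcn* was called higher and *Aspn*, *Fmod*, *Prelp* and *Ogn* were called lower, which makes 5 of 9 where 10.2% of all probes tested were called (4.12% higher and 6.06% lower). The 9 genes were chosen with earlier results of these data known, so their counts beside shares of all probes are a description only. The median log2 fold-change was -0.82 over the 9 genes and 0.04 over all probes tested. TGFß1 lowered *Dcn* and *Prelp*, 2 of 9, against a background of 18% of probes called (10.8% lower), and the medians were -0.58 and 0.05. Without array TNFα 4, 3 of 9 genes were called with TNFα, and *Aspn* (log2 fold-change -2.42, q = 0.0571) and *Prelp* (-2.39, q = 0.052) were the calls lost. With slide and run as blocks, 7 of 9 genes were called with TNFα (background 15.4%) and 5 of 9 with TGFß1 (background 22.4%).

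**Figure D1:**
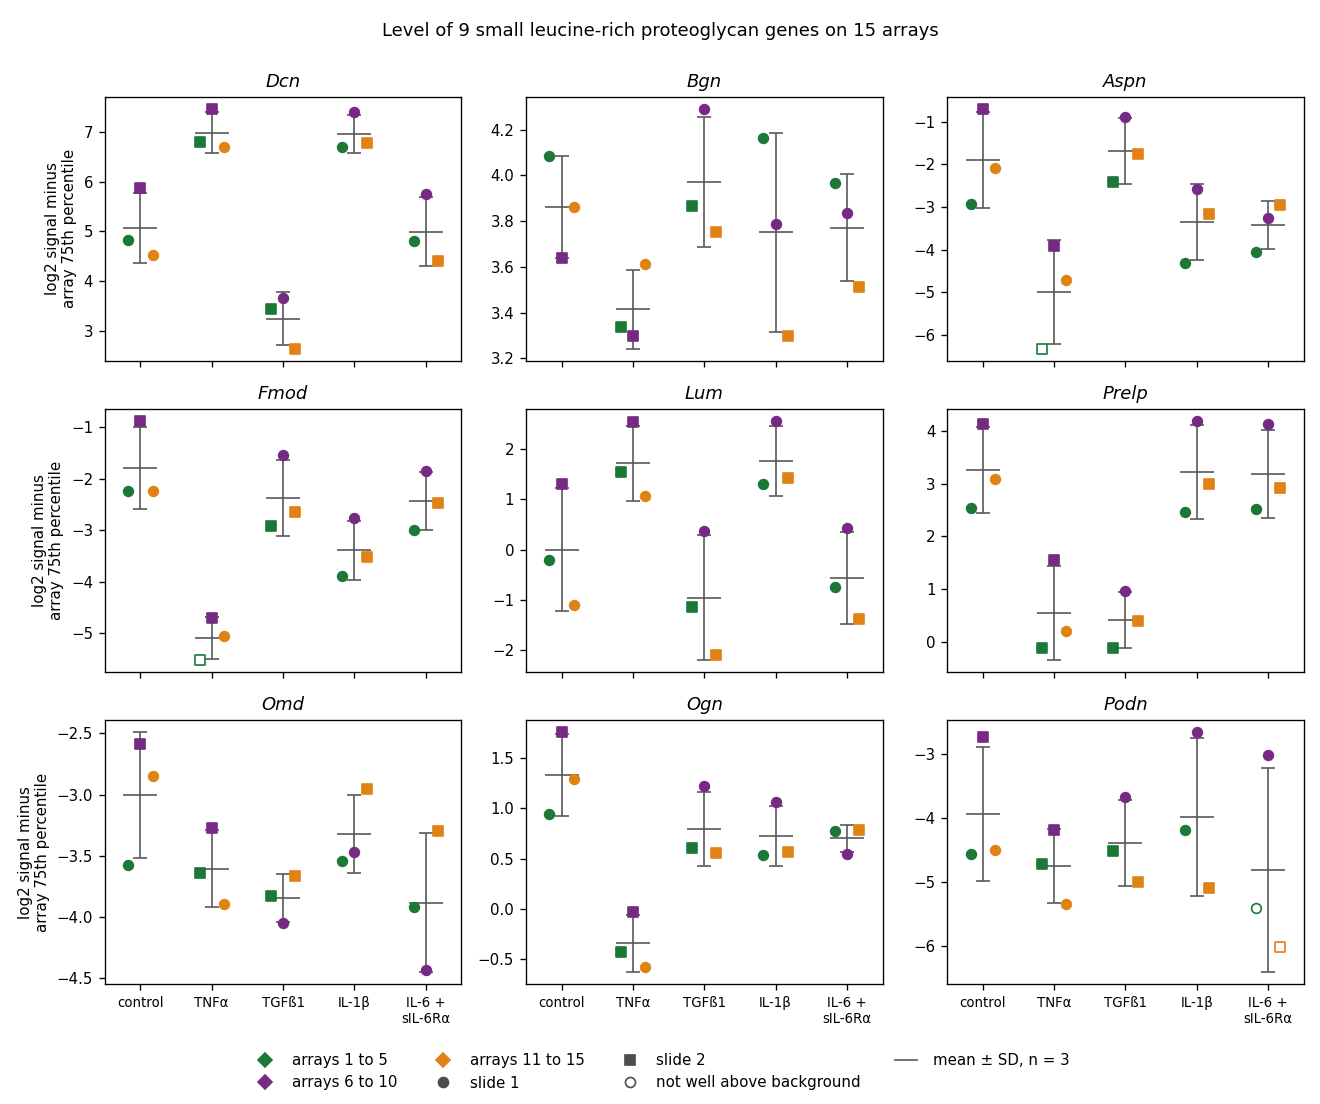
Level of each gene (log2 processed signal minus the array's 75th percentile, vertical axis, its own scale in each panel) in the 5 groups (horizontal axis), 1 point an array; colour gives the run of label numbers, shape the slide, open symbols arrays on which the probe was not well above background, and bars the mean ± SD of 3 arrays. *Dcn* and *Lum* sit high with TNFα and IL-1β, *Aspn*, *Fmod* and *Ogn* sit lowest with TNFα, *Prelp* sits low with both TNFα and TGFß1, and the arrays 6 to 10 lie at the top of their group for *Dcn*, *Fmod*, *Lum*, *Prelp* and *Podn*.

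Decorin, the class I protein that coats type I collagen fibrils and binds TGFß, was higher with TNFα and lower with TGFß1. Its level on the control arrays was 4.82 (control 1), 5.86 (control 6) and 4.53 (control 11). With TNFα it was 6.80, 7.46 and 6.69 on arrays 4, 9 and 14, and with IL-1β 6.69, 7.39 and 6.77 on arrays 5, 10 and 15. With TGFß1 it was 3.45, 3.66 and 2.65 on arrays 2, 7 and 12. All TNFα and IL-1β arrays thus lay above all control arrays, and all TGFß1 arrays below them (39.1% of probes tested did not overlap with TGFß1, 29.6% with TNFα and 5.37% with IL-1β), while the IL-6 arrays (4.82, 5.76 and 4.41) overlapped the controls. *Dcn* rose with TNFα by 1.91 (SE 0.42, limma q = 0.0102), a fold-change of 3.76, and fell by 1.82 with TGFß1 (q = 0.0079), 3.53-fold. Directly compared, TNFα exceeded TGFß1 by 3.73 (q = 6.22e-05), a fold-change of 13.3. With IL-1β the difference from control was 1.88 (95% confidence interval 0.97 to 2.79), as large as with TNFα, but with q = 0.148 it was not called. Its unadjusted limma p was 0.00071, against 0.00062 with TNFα. A q-value also depends on the other probes, of which 0.252% were called with IL-1β and 10.2% with TNFα. With slide and run as blocks the IL-1β difference was called (1.88, SE 0.17, q = 0.0011). Within the slides, the difference from control was 2.01 and 1.26 with TNFα, and -1.02 and -2.81 with TGFß1.

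Lumican, the class II keratan sulfate proteoglycan of cornea and skin, lies next to *Dcn* on chromosome 10 with no other protein-coding gene between them. Its levels were -0.20, 1.30 and -1.11 on the control arrays 1, 6 and 11, 1.55, 2.53 and 1.07 with TNFα, and 1.31, 2.56 and 1.42 with IL-1β. With TGFß1 they were -1.15, 0.37 and -2.10, and with IL-6 and sIL-6Rα -0.75, 0.42 and -1.38. The IL-1β arrays lay above all control arrays (5.37% of probes tested did not overlap), although array IL-1β 5 did so by a narrow margin. The TNFα and control arrays overlapped. No difference from control was called in the fit without blocks: 1.72 with TNFα (q = 0.153), 1.77 with IL-1β (q = 1) and -0.96 with TGFß1 (q = 0.377). Set against the control array of the same run, *Lum* differed by 1.75, 1.23 and 2.18 with TNFα, by 1.51, 1.26 and 2.53 with IL-1β, and by -0.94, -0.94 and -0.99 with TGFß1. With slide and run as blocks all 3 were called, at 1.69 (q = 0.00065), 1.77 (q = 0.0071) and -0.98 (q = 0.0077). Within the slides the TGFß1 difference was 1.02 on slide 1 and -2.92 on slide 2, where each slide holds arrays of different runs. TNFα exceeded TGFß1 by 2.68 (SE 0.73, q = 0.0256), a call that held in 2 of the 6 fits that left out an array of these groups. It was lost without TNFα 4, TNFα 9, TGFß1 2 or TGFß1 12 (q = 0.0577 to 0.109). Over the 15 arrays *Lum* and *Dcn* had a Pearson's r of 0.912, a description only, as the arrays share groups, slides and runs.

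PRELP, a class II protein that anchors basement membranes to the connective tissue beneath them, fell both with TNFα and with TGFß1. Its level was 2.55, 4.14 and 3.10 on the control arrays, -0.13, 1.56 and 0.20 with TNFα, and -0.12, 0.96 and 0.39 with TGFß1. With IL-1β it was 2.47, 4.20 and 3.00, and with IL-6 and sIL-6Rα 2.53, 4.13 and 2.91. The TNFα and TGFß1 arrays all lay below the control arrays (29.6% and 39.1% of probes tested did not overlap). The IL-1β and IL-6 arrays overlapped the controls. It fell by 2.72 with TNFα (log2, SE 0.60, limma q = 0.01), 6.61-fold, and by 2.85 with TGFß1 (q = 0.0045), 7.22-fold. TNFα minus TGFß1 was 0.13, with a 95% confidence interval of -1.17 to 1.42 (q = 0.941), which leaves room for a difference of either sign. The second *Prelp* probe gave -2.45 with TNFα (q = 0.0063) and -2.74 with TGFß1 (q = 0.0018). Within the slides, *Prelp* on its main probe differed from control by -2.63 and -3.43 with TNFα and by -1.86 and -4.01 with TGFß1.

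Fibromodulin, a class II protein that binds type I collagen and takes part in its cross-linking, was 9.90-fold lower with TNFα. The control levels of *Fmod* were -2.24, -0.87 and -2.24, and those with TNFα -5.52, -4.70 and -5.06, on arrays 4, 9 and 14. On TNFα 4 the probe was not well above background. With IL-1β the levels were -3.88, -2.76 and -3.52, all below the controls and above the TNFα arrays. Of probes tested, 5.37% did not overlap between IL-1β and control and 29.6% between TNFα and control. That share is not given here between IL-1β and TNFα. With TGFß1 (-2.92, -1.54 and -2.65) and with IL-6 and sIL-6Rα (-2.99, -1.86 and -2.47) the arrays overlapped the controls. With TNFα *Fmod* fell by 3.31 (log2, SE 0.47, limma q = 0.00063). The IL-1β difference of -1.60 (95% confidence interval -2.62 to -0.58, q = 0.507) was not called, and was called with slide and run as blocks (-1.60, SE 0.16, q = 0.0017), as was the TGFß1 difference (-0.59, q = 0.0158). For this dim probe the size differed between ways of processing. With normexp, which starts from the median signal and adds an offset of 50, the TNFα difference was -1.63 (limma q = 0.0039). Without normexp, the TNFα difference within the slides was -2.82 and -4.24.

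Asporin is a class I protein without a chondroitin or dermatan sulfate chain that binds collagen and TGFß. *Aspn* stood at -2.92, -0.70 and -2.09 on the control arrays and at -6.32, -3.92 and -4.72 with TNFα. These TNFα arrays all lay below the controls (29.6% of probes tested did not overlap), though the probe was not well above background on TNFα 4. *Aspn* was at -2.41, -0.89 and -1.75 with TGFß1, among the controls. With IL-1β (-4.32, -2.57 and -3.16) it overlapped the controls, and with IL-6 and sIL-6Rα (-4.06, -3.26 and -2.95) all arrays lay below them (5.18% of probes did not overlap), though array IL-6 13 was only just so. With TNFα *Aspn* fell by 3.09 (log2, SE 0.70, limma q = 0.0119), 8.50-fold, and it was -1.35 with normexp (q = 0.0296). The call was lost without TNFα 4, as given above, and when only TNFα and control arrays entered the fit (-3.09, q = 0.0608). The differences with IL-1β (-1.45, q = 1) and with IL-6 and sIL-6Rα (-1.52, q = 1) were called only with slide and run as blocks (q = 0.0398 and q = 0.042). Within the slides the TNFα difference was -2.22 and -4.43.

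Osteoglycin, the class III member, which takes part in fibril assembly in several connective tissues, was the fourth gene lower with TNFα. *Ogn* was at 0.95, 1.75 and 1.29 on the control arrays and at -0.42, -0.03 and -0.58 with TNFα, with no overlap (as in 29.6% of probes tested). It was at 0.61, 1.22 and 0.55 with TGFß1, at 0.54, 1.06 and 0.57 with IL-1β, and at 0.77, 0.54 and 0.79 with IL-6 and sIL-6Rα. The IL-6 arrays lay below all controls (5.18% of probes tested did not overlap), and the TGFß1 and IL-1β arrays overlapped the controls. With TNFα *Ogn* fell by 1.67 (log2, SE 0.24, limma q = 0.00073), 3.18-fold, and within the slides the difference was -1.69 and -1.98. The other 3 differences from control, -0.53, -0.61 and -0.63, were not called with or without blocks (q = 0.13 to 1 without).

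*Fmod* and *Prelp* are neighbours on chromosome 1, and *Aspn*, *Omd* and *Ogn* follow each other on chromosome 13, in each case with no other protein-coding gene between them. As *Prelp*, *Fmod*, *Aspn* and *Ogn* were lower together with TNFα, the 250 bases before the gene start are shown for each. They are from RefSeq (GRCm38.p6), 5′ to 3′ on the strand of the gene. Capitals mark the letters TATAAA on either strand, and whether these act as a TATA box was not tested. *Prelp* is at chr1:133921402-133921651 on the minus strand, *Fmod* at chr1:134037004-134037253, *Aspn* at chr13:49544193-49544442 and *Ogn* at chr13:49607765-49608014, these 3 on the plus strand.
Prelp: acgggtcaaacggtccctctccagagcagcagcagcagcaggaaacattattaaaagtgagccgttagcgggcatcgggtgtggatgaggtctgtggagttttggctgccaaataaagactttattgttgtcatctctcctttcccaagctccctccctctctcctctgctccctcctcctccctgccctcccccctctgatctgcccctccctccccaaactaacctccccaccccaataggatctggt
Fmod: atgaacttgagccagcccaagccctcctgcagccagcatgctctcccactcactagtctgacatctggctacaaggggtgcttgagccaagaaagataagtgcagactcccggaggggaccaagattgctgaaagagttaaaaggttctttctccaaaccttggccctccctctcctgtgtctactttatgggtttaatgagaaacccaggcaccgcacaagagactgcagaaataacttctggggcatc
Aspn: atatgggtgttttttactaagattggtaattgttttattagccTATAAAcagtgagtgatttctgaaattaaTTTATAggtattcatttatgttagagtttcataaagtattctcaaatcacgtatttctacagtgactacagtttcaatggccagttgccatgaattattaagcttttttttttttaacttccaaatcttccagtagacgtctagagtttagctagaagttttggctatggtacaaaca
Ogn: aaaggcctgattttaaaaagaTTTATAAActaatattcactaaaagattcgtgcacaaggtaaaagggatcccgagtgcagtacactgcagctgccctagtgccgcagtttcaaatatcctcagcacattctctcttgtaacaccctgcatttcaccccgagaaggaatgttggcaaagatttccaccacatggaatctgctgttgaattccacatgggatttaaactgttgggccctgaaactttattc
Searched on both strands were TATAAA (the letters of a TATA box), TGANTCA (AP-1), TTCNNNGAA (STAT) and the NF-kB motif, where N is any base. TATAAA was found 2 times in the *Aspn* window, 207 and 178 bases before the gene start, and 2 times in the *Ogn* window, overlapping on opposite strands 229 and 227 bases before it, and 12.4% of 32851 RefSeq windows of this length hold it. No window of the 7 members with an entry held AP-1, STAT or NF-kB letters, which 6.75%, 7.02% and 3.9% of all windows hold, and this says only that these letters are not in these 250 bases.

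Osteoadherin, a class II keratan sulfate protein of mineralized matrix, lies between *Aspn* and *Ogn*. *Omd* was at -3.57, -2.59 and -2.85 on the control arrays, -3.64, -3.27 and -3.90 with TNFα, and -3.83, -4.05 and -3.66 with TGFß1. With IL-1β it was -3.54, -3.47 and -2.95, and with IL-6 and sIL-6Rα -3.92, -4.43 and -3.30. The TGFß1 arrays lay below all controls (39.1% of probes tested did not overlap), those nearest each other being TGFß1 12 and control 1. The other groups overlapped the controls. The differences of -0.60 with TNFα (q = 0.239) and -0.84 with TGFß1 (q = 0.0643) were not called. *Omd* was 0.56 higher on slide 2 than on slide 1 in the fit with the slide, and with the slide as a block both were called, at -0.79 (limma q = 0.019) and -1.03 (q = 0.0028). They were called with slide and run as well, at -0.77 (q = 0.0102) and -1.02 (q = 0.0016). Within the slides, *Omd* differed by -0.69 and -0.87 with TNFα and by -0.84 and -1.16 with TGFß1. These values are for a dim probe: with normexp the TNFα and TGFß1 differences were -0.28 and -0.40, neither called.

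Biglycan, the class I protein closest to decorin in sequence, was not called in any of the 10 comparisons, with or without blocks. *Bgn* lay at 4.09, 3.64 and 3.86 on the control arrays, 3.33, 3.30 and 3.61 with TNFα, and 3.87, 4.29 and 3.75 with TGFß1. It lay at 4.16, 3.79 and 3.30 with IL-1β and at 3.97, 3.84 and 3.51 with IL-6 and sIL-6Rα. All TNFα arrays were below all control arrays, the margin between TNFα 14 and control 6 being small, and 29.6% of probes tested did not overlap in this comparison. The difference was -0.45 with TNFα (95% confidence interval -0.93 to 0.03, limma q = 0.223) and 0.11 with TGFß1 (-0.37 to 0.59, q = 0.76). With slide and run as blocks these became -0.31 (q = 0.0233) and 0.24 (q = 0.0483), past the q-value but under the fold-change of 1.5. In that fit *Bgn* was also lower than with TGFß1 by limma q-value, and under the same fold-change, with TNFα (-0.55, q = 0.001), IL-1β (-0.36, q = 0.0093) and IL-6 with sIL-6Rα (-0.33, q = 0.0131). *Bgn* was 0.44 lower on slide 2 than on slide 1.

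Podocan, which binds collagen and restrains smooth muscle cell growth, gave the least certain values. *Podn* was at -4.57, -2.73 and -4.50 on the control arrays, and its other levels ran from -6.02 on IL-6 13 to -2.65 on IL-1β 10. It was not well above background on IL-6 3 and IL-6 13. All 4 treated groups overlapped the controls. The differences from control ran from -0.88 with IL-6 and sIL-6Rα (95% confidence interval -2.63 to 0.87) to -0.04 with IL-1β, with an SE of 0.81 in the fit without blocks, and none was called with or without blocks. In the fit with both blocks the differences were -0.77 with TNFα (SE 0.36, q = 0.124), -0.41 with TGFß1 (q = 0.372), -0.04 with IL-1β (q = 0.977) and -0.88 with IL-6 and sIL-6Rα (q = 0.342).

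**Figure D2:**
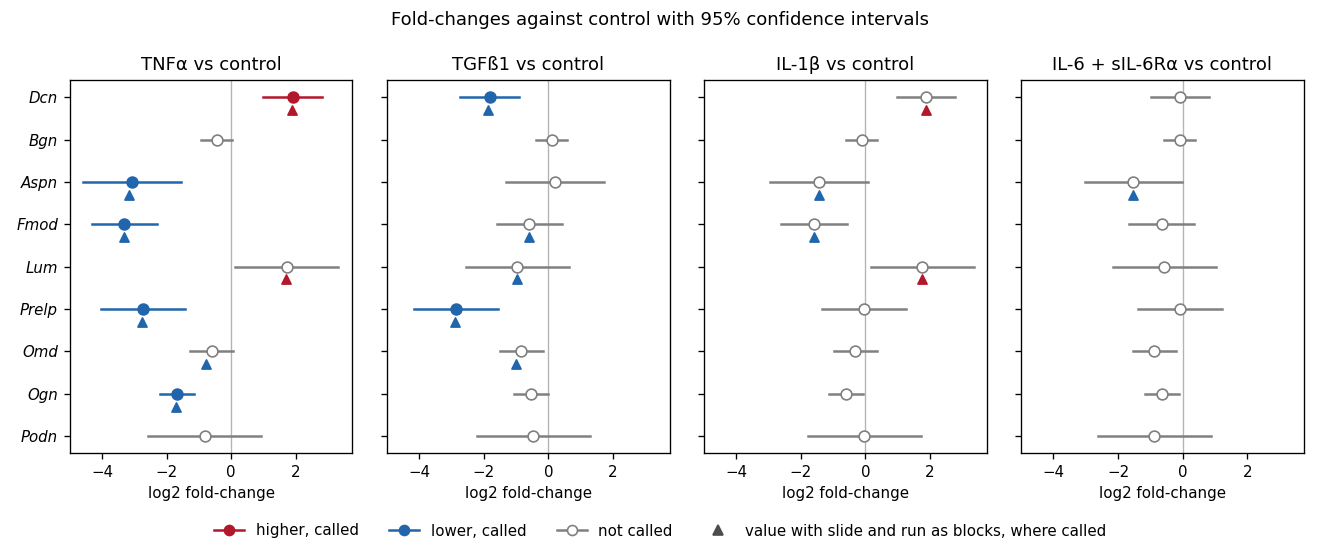
Log2 fold-change of each gene against control (horizontal axis) for the 4 treatments, with its 95% confidence interval from the fit without blocks; filled points were called, red higher and blue lower, and triangles give the value with slide and run as blocks for genes called there. The filled points are *Dcn*, *Aspn*, *Fmod*, *Prelp* and *Ogn* with TNFα and *Dcn* and *Prelp* with TGFß1, and the IL-1β and IL-6 panels hold none.

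With IL-1β and with IL-6 and sIL-6Rα, 0 of 9 genes were called by limma in the fit without blocks, where 0.252% and 0.0648% of probes tested were called. At an unadjusted limma p below 0.05 there were 4 with IL-1β (*Dcn*, *Fmod*, *Lum* and *Ogn*) and 3 with IL-6 and sIL-6Rα (*Aspn*, *Omd* and *Ogn*). The share of all probes at that p was not taken, so counts at an unadjusted p, here and below, have no background. With slide and run as blocks 4 were called with IL-1β (*Dcn* and *Lum* higher, *Aspn* and *Fmod* lower; background 1.09%) and 1 with IL-6 and sIL-6Rα (*Aspn* lower; background 0.777%). The median log2 fold-change over the 9 genes was -0.11 with IL-1β and -0.63 with IL-6 and sIL-6Rα, and rounded to 0 over all probes in either case. IL-1β and IL-6 with sIL-6Rα, compared directly, gave 0 calls (background 0.419%), 2 at an unadjusted p below 0.05 (*Dcn* and *Lum*), and 3 with slide and run as blocks: *Dcn* (1.96, q = 0.00071) and *Lum* (2.33, q = 0.0012) were higher with IL-1β and *Fmod* lower (-0.95, q = 0.0149), where 1.77% of probes were called.

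The treatments were also set against each other. Between TNFα and TGFß1, 5 of 9 genes were called (background 11.8%): *Dcn* and *Lum* were higher with TNFα, and *Aspn* (-3.30, q = 0.006), *Fmod* (-2.72, q = 0.0016) and *Ogn* (-1.14, q = 0.0062) were lower. Between IL-1β and TNFα, 2 of 9 were called (background 4.83%, with 3.11% higher with IL-1β), *Prelp* higher with IL-1β by 2.68 (q = 0.0211) and *Ogn* by 1.07 (q = 0.0232). Leaving out 1 array at a time gave 0 to 2 calls by limma, with 0 without TNFα 4, TNFα 14 or IL-1β 10, while 4 were called with slide and run as blocks (*Aspn*, *Fmod*, *Prelp* and *Ogn*; background 10.5%). *Dcn* and *Lum* did not differ by more than their spread between IL-1β and TNFα, with differences of -0.03 (95% confidence interval -0.94 to 0.88) and 0.05 (-1.55 to 1.64). IL-1β exceeded TGFß1 in 3 genes (background 17%, with 10.7% higher with IL-1β), *Dcn* by 3.70 (q = 8.27e-05), *Lum* by 2.72 (q = 0.0184) and *Prelp* by 2.81 (q = 0.0052), and the *Lum* call was lost without TGFß1 2, TGFß1 12 or IL-1β 10 (q = 0.0597, 0.0789 and 0.0871). The slide and run blocks gave 6 calls (background 22.1%): *Omd* (0.70, q = 0.0119) was higher with IL-1β as well, while *Aspn* (-1.59, q = 0.0016) and *Fmod* (-1.01, q = 0.00096) were lower than with TGFß1.

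IL-6 with sIL-6Rα differed from TNFα in 4 genes (background 8.68%). *Fmod* was higher with IL-6 by 2.66 (q = 0.003), *Prelp* by 2.65 (q = 0.0128) and *Ogn* by 1.04 (q = 0.0151), while *Dcn* was lower (-1.99, q = 0.009). Without TNFα 4, 2 genes were called, *Prelp* and *Ogn* being lost (q = 0.0643 and q = 0.0605). *Prelp* was also lost without IL-6 8 (q = 0.0652) and *Ogn* without TNFα 14 (q = 0.0607). Against TGFß1, *Dcn* (1.74, q = 0.0107) and *Prelp* (2.78, q = 0.0057) were higher with IL-6 (2 of 9, background 16.4%, with 10.1% higher with IL-6), and *Dcn* was lost without IL-6 8 (q = 0.0562), which left 1 gene. With slide and run as blocks 6 genes were called between IL-6 and TNFα (background 14.1%), with *Aspn* higher (1.64) and *Lum* lower (-2.26) with IL-6 in addition, 3 between IL-6 and TGFß1 (21.4%), with *Aspn* lower with IL-6 (-1.67) in addition, and 5 between TNFα and TGFß1 (16.1%). Ordered by mean level, and in the fit without blocks, *Dcn* ran TNFα, IL-1β, control, IL-6 with sIL-6Rα, TGFß1, and of these neighbours only the last step, IL-6 to TGFß1, was called. *Prelp* ran control, IL-1β, IL-6, TNFα, TGFß1, with only the step from IL-6 to TNFα called (2.65), and *Ogn* ran control, TGFß1, IL-1β, IL-6, TNFα, with only the last step called (1.04). In the other 6 genes no neighbours in the order of levels were called apart in that fit. Under the slide and run blocks more of these steps were called: IL-1β to control for *Dcn* (1.88, q = 0.0011), TNFα to control for *Lum* (q = 0.00065), control to TGFß1 (q = 0.0158), IL-6 to IL-1β (q = 0.0149) and IL-1β to TNFα (q = 0.00015) for *Fmod*, and control to IL-1β (q = 0.0398) and IL-6 to TNFα (q = 0.0024) for *Aspn*. For *Bgn*, *Omd* and *Podn* no step was called in either fit.

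The spread within groups followed the label numbers. The arrays 6 to 10 held the highest level of all 5 groups for *Dcn*, *Fmod*, *Lum*, *Prelp* and *Podn*, which 4.56% of probes tested did, and of 4 of 5 groups for *Aspn* and *Ogn*. Averaged over groups, these arrays exceeded the mean of the other runs by 0.86 for *Dcn*, 1.00 for *Fmod*, 1.57 for *Lum*, 1.31 for *Prelp*, 1.20 for *Aspn* and 1.69 for *Podn*, against 0.02 for *Bgn* and -0.05 for *Omd*. In limma with slide and run in the model, the F test of the run gave q = 0.00016 for *Prelp*, 0.0008 for *Lum*, 0.0012 for *Fmod*, 0.0023 for *Aspn*, 0.0025 for *Dcn* and 0.0034 for *Podn*, where 36.1% of probes had a q below 0.05. For *Ogn*, *Bgn* and *Omd* it gave 0.0559, 0.113 and 0.324. What differs between the runs was not tested. Taken within a run, 1 array against 1, the differences from control were for *Dcn* 1.97, 1.60 and 2.16 with TNFα and 1.87, 1.53 and 2.24 with IL-1β, for *Prelp* -2.68, -2.59 and -2.90 with TNFα and -2.67, -3.18 and -2.71 with TGFß1, and for *Fmod* -3.28, -3.83 and -2.82 with TNFα and -1.64, -1.89 and -1.27 with IL-1β. The widest spreads from lowest to highest value were those of *Aspn* with IL-6 and sIL-6Rα (-1.14, -2.56 and -0.86), *Omd* with IL-6 and sIL-6Rα (-0.34, -1.84 and -0.45) and *Podn* with TNFα (-0.15, -1.46 and -0.85). By SD, *Lum* with IL-1β (0.674) was wider than *Podn* with TNFα (0.656). The narrowest spread was that of *Lum* with TGFß1, given above.

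**Figure D3:**
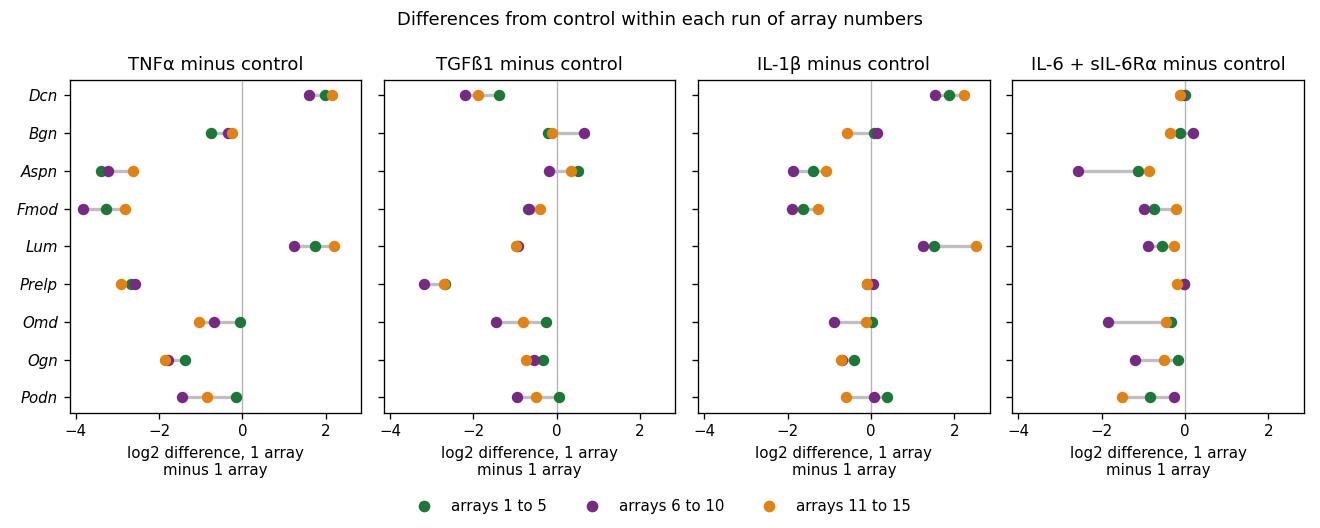
Difference in log2 level between the treated and the control array of the same run of label numbers (horizontal axis), 1 point a run, for each gene and treatment; grey bars join the lowest and highest of the 3. *Dcn* and *Lum* lie to the right of 0 in all 3 runs with TNFα and with IL-1β, and *Aspn*, *Fmod*, *Prelp* and *Ogn* to the left in all 3 with TNFα.

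In bulk RNA, fewer cells of a type and less RNA per cell cannot be told apart. The summed levels of some marker lists moved with the groups. Each sum adds the unlogged levels of different probes, so the brightest probes weigh most and a sum can follow a single gene. The summed level of 9 fibroblast markers, which include collagens, was 9.58 to 9.83 (log2) on control, 9.08 to 9.27 on TNFα and 9.76 to 10.1 on TGFß1 arrays. That of 5 adipocyte markers, of which *Fabp4* and *Pparg* were well above background on all 15 arrays, was 3.96 to 4.28 on control, 2.08 to 2.50 on TNFα and 2.77 to 3.31 on TGFß1 arrays, and 3.94 to 4.17 on IL-1β and IL-6 arrays, so it was low in the same groups as *Prelp*. That of the 6 epithelial markers was -3.64 to -2.64 on control, -4.12 to -3.74 on TNFα and -2.62 to -1.24 on TGFß1 arrays. The ranges of the TNFα arrays and of the TGFß1 arrays overlapped the control range for the macrophage, endothelial, chondrocyte, osteoblast and smooth muscle lists. Their part in the results was not tested.

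The pattern of each gene over the 15 arrays was set against 13478 other genes with a tested probe, as a description in which groups, runs and slides are shared. *Dcn* was most like *Cp* (ceruloplasmin, an acute-phase copper protein, Pearson's r = 0.970), *C3* (complement, 0.959) and *Enpp2* (autotaxin, 0.951), and *Lum* most like *Gpm6b* (0.925), *Tnfaip8* (0.904) and *Cp* (0.903). *Prelp* was most like *Mmp19* (a metalloproteinase, 0.986), *Rab40b* (0.981) and *Acadl* (0.978). *Fmod* was most like *Sparcl1* (a matricellular protein, 0.958), *Fdps* (an enzyme of cholesterol synthesis, 0.957) and *Ubqln2* (0.956), *Ogn* most like *Dhcr7* (the last step of cholesterol synthesis, 0.956), *Gsn* (gelsolin, 0.949) and *Ebpl* (0.934), and *Aspn* most like *Col5a2* (a fibrillar collagen chain, 0.931), *Ankrd35* (0.928) and *Dlgap2* (0.928). *Bgn* was most like *Fscn1* (an actin bundler, 0.958), *Capza2* (0.949) and *Lrrc42* (0.940), and with the slide removed these fell to 0.914, 0.897 and 0.877. For *Omd* and *Podn* the highest values were 0.867 (*4933405D12Rik*) and 0.888 (*9330102E08Rik*). Among the members, *Fmod* and *Ogn* had an r of 0.914, *Aspn* and *Fmod* 0.877, and *Aspn* and *Ogn* 0.838.

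The genes around the family were described by lists of what builds the chains, what the proteins bind, what senses them and what cuts them. Of all probes tested, 10.2% were called with TNFα and 18% with TGFß1. The lists were chosen with earlier results of these data known and hold 1 probe a gene. Their counts beside these shares are thus a description and no test of enrichment. Linkage region enzymes start the chondroitin and dermatan sulfate chains on the core protein. Of these, 2 of 6 tested rose with TGFß1, *Pxylp1* (1.31, limma q = 0.0095), the phosphatase that lets the chain extend, and *B4galt7* (0.72, q = 0.00021). With TNFα 0 were called by limma, with 1 at an unadjusted p below 0.05. The median log2 fold-change of the list was 0.03 with TNFα and 0.21 with TGFß1. Of 12 chondroitin and dermatan sulfate enzymes, *Chst11* (2.78, q = 1.84e-05), *Ust* (2.18, q = 1.09e-05) and *Chsy1* (1.10, q = 0.0001) rose and *Chst15* fell by 1.78 (q = 0.0125) with TGFß1. The first was at -1.83, -2.19 and -2.40 on control and at 0.86, 0.47 and 0.59 on TGFß1 arrays. With TNFα *Csgalnact1*, which starts chondroitin chains, fell by 1.26 (q = 0.0026). Of 5 keratan sulfate enzymes, *Chst2* (q = 0.00014) and *B4galt1* (0.86, q = 0.00013) rose with TGFß1, and *Chst1*, the sulfotransferase that acts on the galactose of keratan sulfate, fell by 1.65 with TGFß1 and by 1.06 with TNFα (q = 0.00015 and q = 0.0044). The medians with TNFα and TGFß1 were -0.18 and -0.01 for the chondroitin and dermatan sulfate list and -0.34 and -0.13 for the keratan sulfate list. Under the slide and run blocks the counts of these 3 lists were the same with TNFα, and with TGFß1 *B4galt4* (-0.80, q = 0.0022) was called lower in addition.

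The collagens these proteins bind were called lower with TNFα in 9 of 11 genes tested, with a median log2 fold-change of -1.22. With slide and run as blocks 11 of 11 were called lower, where 15.4% of all probes were called. *Col2a1* ran from -4.18 to 1.52 on control arrays, and neither it nor *Col14a1* was well above background on TNFα 14. *Col3a1* fell by 2.17 (limma q = 0.0066), *Col6a2* by 2.15 (q = 0.00026), *Col6a1* by 1.55 (q = 0.0011) and *Col12a1* by 1.53 (q = 0.0025). *Col6a2* was at 3.99, 4.20 and 4.14 on control and at 1.41, 2.23 and 2.23 on TNFα arrays, with no overlap (as in 29.6% of probes tested). With TGFß1 the list was split, with a median of 0.22: *Col6a3* (0.80) and *Col5a1* (0.79) rose, and *Col6a2*, *Col12a1* and *Col6a1* fell by 0.96, 0.92 and 0.75. The fit with slide and run as blocks called 2 higher and 5 lower with TGFß1, adding *Col3a1* (-1.18) and *Col2a1* (-1.17), which was 0.22 without blocks.

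All 5 growth factor genes tested that these proteins can bind rose with TGFß1, with a median of 1.60: *Ccn2* (3.06, q = 0.00019), *Tgfb3* (2.44, q = 2.41e-06), *Tgfb2* (1.60), *Tgfb1* (1.58) and *Ccn4* (1.16). With TNFα *Tgfb2* fell by 1.19 (q = 0.00087) and the median was -0.25. *Tgfb1* was called higher with TNFα under the slide and run blocks (0.98, q = 2.3e-05). *Tgfb3* was at 1.95, 1.75 and 2.24 on control and at 4.13, 4.77 and 4.37 on TGFß1 arrays.

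Of 9 receptors tested, *Tlr2*, a Toll-like receptor that senses soluble biglycan, rose with TNFα by 1.83 (q = 0.00051) and fell by 1.10 with TGFß1 (q = 0.0076). *Tlr4*, another such receptor, fell by 2.61 with TGFß1 (q = 0.00041), from -1.58, -0.43 and -1.43 on control to -3.88, -3.91 and -3.48. *Cd44*, the hyaluronan receptor, rose by 0.90 with TNFα and by 0.89 with TGFß1. The medians were -0.18 and -0.03. Under the slide and run blocks *P2rx7* (0.67, q = 0.0018) was called higher and *Tlr4* (-1.06, q = 0.00021) lower with TNFα in addition.

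Of 10 proteases tested that cut these proteins or their matrix, *Mmp13* (5.84, q = 1.77e-08), *Mmp9* (4.31) and *Mmp3* (3.89) rose with TNFα, while the aggrecanases *Adamts5* and *Adamts1* fell by 2.81 and 2.47. *Mmp13* was at -3.04, -3.15 and -2.98 on control and at 3.04, 2.41 and 2.91 on TNFα arrays, and it also rose with IL-1β, by 2.60 (q = 0.00021). With TGFß1 *Tll1*, an enzyme of the group that removes the propeptide of probiglycan, rose by 6.26 (limma q = 0.00061). Its levels were -4.60, -7.82 and -4.75 on control, where it was well above background on 2 of 3 arrays, and 0.77, 0.54 and 0.31 with TGFß1. The *Tll1* probe was well above background throughout the TGFß1 group only, so it entered the test through the group where it was high. The size of its difference also leans on control 6, where it was not well above background. *Adamts4* (1.94) and *Bmp1* (0.60) rose with TGFß1 as well, and *Adamts5*, *Adamts1* and *Mmp3* fell by 3.74, 2.83 and 2.83. The medians were 0.20 and 0.29. The slide and run blocks added calls for 3 proteases: *Tll1* (2.21, q = 0.0049) was called higher and *Mmp2* (-0.97, q = 7.5e-05) lower with TNFα, and *Mmp14* (0.65, q = 0.00081) higher with TGFß1. For *Tll1* with TNFα the limit given above holds too, as its probe was not well above background on TNFα 9 or control 6.

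Of 9 further leucine-rich relatives 4 were tested. *Optc*, next to *Prelp* on chromosome 1, fell by 2.20 with TNFα (q = 0.0352), from -4.67, -3.02 and -2.68 to -7.05, -4.93 and -4.99, and was not well above background on 1 TNFα array. *Tsku*, a regulator of growth factor signals, rose by 0.65 (q = 0.042), a call lost with the slide or with slide and run as blocks, and 0 were called with TGFß1 by limma, with 1 at an unadjusted p below 0.05. The medians were 0.09 and 0.26. *Podnl1* was called higher with TGFß1 under the slide and run blocks (0.74, q = 0.0036). Over these 8 lists, 1 of 62 genes tested (*Mmp13*) was called with IL-1β and 0 with IL-6 and sIL-6Rα, and 7 and 5 were called with slide and run as blocks. At an unadjusted limma p below 0.05 there were 8 in each, with no share of all probes taken at that p.

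**Figure D4:**
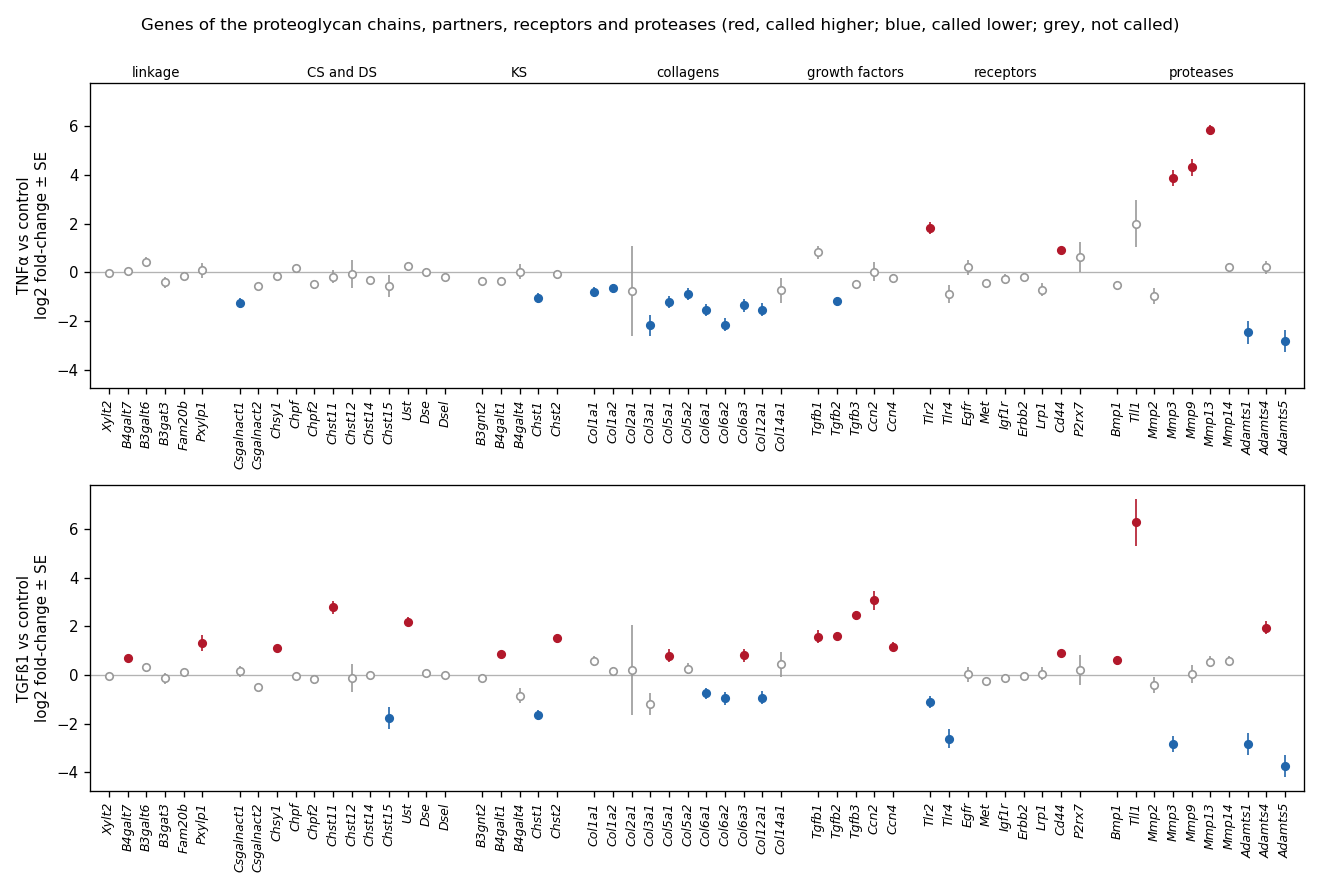
Log2 fold-change ± SE against control (vertical axis) of the tested genes of 7 lists (horizontal axis, grouped by list; CS, DS and KS are chondroitin, dermatan and keratan sulfate) with TNFα (top) and TGFß1 (bottom); red was called higher, blue lower, open grey not called. With TNFα the collagens lie below 0 and *Mmp13*, *Mmp9* and *Mmp3* lie highest, and with TGFß1 *Tll1* and the growth factors lie above 0.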

How the data were processed

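Gene expression of 15 MEF cultures was measured on one-color whole Mouse 60-mer arrays, 3 for each of 5 groups taken from the labels. The authors labelled RNA with Cyanine 3, scanned each array and took spot values with Agilent Feature Extraction 10.7.3.1, as the submitters' processing notes give it. The deposited intensity of each spot is the processed signal of that software, which is corrected for background and not normalized between arrays; the settings of the correction are not given in the sources used here. The deposited table of the series holds the same intensity values, with a largest difference of 0.

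Of 62976 spots an array, 59305 were not controls, for 56605 probes. Spots with an outlier flag were dropped, spots sharing a probe were averaged on the log2 scale, and the 75th percentile of the array was subtracted. Tested were the 29334 probes that stood well above background throughout at least 1 group. Names came from RefSeq identifiers (33767 probes, GRCm38.p6; the array was drawn on an older assembly), and where a gene had several probes the brightest stood for it. limma 3.58.1 in R 4.3.3 was fitted to all 15 arrays with no covariate, with two-sided moderated tests and q-values by Benjamini-Hochberg across these probes, after a test on simulated data. Replicas were cultures of 1 line, and 3 arrays a group limit the precision.

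The members and lists were chosen with earlier results of these data known. Named from each list were the called genes with the largest fold-change, at most 4, plus those needed for a count of 5 or fewer, and for each member the 3 genes most like it. The slide was read from the file headers. Slide 1 held control 1 and 11, TNFα 14, TGFß1 7, IL-1β 5 and 10, and IL-6 3 and 8, and slide 2 the other 7 arrays. With group means and slide removed, arrays of the same run correlated across probes (r = 0.114 to 0.671 in 30 pairs, all over 0.1, against 2 of 60 pairs of different runs), so slide and run were fitted together as blocks; without removing the slide it was 12 of 30 and 28 of 60. A fit with the run alone and the list counts under each alternative were added after seeing the data. Alternatives were quantile normalization, normexp, filters, blocks, arrays in the fit, the series table, probe averaging, no fold-change criterion, and leaving out arrays.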

Additional observations from a re-analysis of the deposited data

How the results depend on the processing

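The counts of genes called of the 9 stayed within 1.5 times in 150 comparisons of a count with an alternative and moved in 20. With slide and run as blocks they were 5 for TGFß1 and 4 for IL-1β against control, 1 for IL-6 with sIL-6Rα against control, 4 for IL-1β against TNFα, 6 for IL-1β against TGFß1 and 3 for IL-1β against IL-6 with sIL-6Rα. With the run alone as a block, added after seeing the data, the counts were 3 for IL-1β against control, 4 against TNFα, 5 against TGFß1 and 3 against IL-6 with sIL-6Rα. With probes well above background on all 15 arrays only, 3 were called for TNFα against control and 3 for TNFα against TGFß1. *Aspn*, *Fmod* and *Podn* were then not tested, so these counts are not out of 9. IL-1β against TNFα gave 1 with no filter on dim probes and 0 with only these groups in the fit. The share of all probes called is not given here for the run alone, the filters, single groups or fits without an array. The cause of the other shifts was not tested.

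Leaving out 1 array at a time gave 3 to 5 for TNFα and 2 to 3 for TGFß1 against control, 0 for IL-1β and 0 for IL-6 with sIL-6Rα, 4 to 5 for TNFα against TGFß1, 0 to 2 for IL-1β against TNFα, 2 to 3 for IL-1β against TGFß1, 2 to 4 and 1 to 2 for IL-6 with sIL-6Rα against TNFα and TGFß1, and 0 for IL-1β against IL-6 with sIL-6Rα.

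Of the log2 fold-changes of the 9 genes in the 10 comparisons under an alternative (the fold-change criterion aside), 1275 kept direction and side of the threshold, 25 lost a call, 42 gained one and 68 turned sign, none of them a called value. With quantile normalization *Bgn* with TGFß1 was -0.0191, *Dcn* in IL-1β minus TNFα 0.0279 and *Bgn* in IL-1β minus IL-6 0.0138. With normexp *Podn* with IL-1β was 0.0384, *Dcn* in IL-1β minus TNFα 0.00565, *Podn* in IL-6 minus TNFα 0.0131 and *Bgn* in IL-1β minus IL-6 0.0282. With the slide as a block *Lum* in IL-1β minus TNFα was -0.00714 and *Omd* in IL-6 minus TGFß1 0.150, and with slide and run *Dcn* in IL-1β minus TNFα was 0.00445 and *Omd* in IL-6 minus TGFß1 0.137. In IL-1β minus TNFα, *Fmod* gained a call with quantile normalization (q = 0.0437) and *Ogn* lost its call with no filter (q = 0.0565).

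Leaving out arrays gave, for values that turned sign, with TGFß1 -0.29 to 0.82 for *Aspn*, -0.0535 to 0.22 for *Bgn* and -0.82 to 0.14 for *Podn*. With IL-1β it gave -0.53 to 0.40 for *Prelp*, -0.70 to 0.56 for *Podn* and -0.32 to 0.11 for *Bgn*, and with IL-6 and sIL-6Rα -0.46 to 0.32 for *Dcn*, -1.12 to 0.0888 for *Lum*, -0.54 to 0.37 for *Prelp* and -0.20 to 0.0387 for *Bgn*. TNFα minus TGFß1 was -0.38 to 0.46 for *Prelp* and -0.66 to 0.0017 for *Podn*, IL-1β minus TNFα -0.25 to 0.21 for *Dcn* and -0.35 to 0.45 for *Lum*, and IL-6 minus TNFα -0.97 to 0.54 for *Podn*. IL-1β minus TGFß1 was -0.43 to 0.0064 for *Bgn*, -0.24 to 0.14 for *Ogn* and -0.25 to 0.98 for *Podn*. IL-6 minus TGFß1 was -0.36 to 0.35 for *Fmod*, -0.18 to 1.05 for *Lum*, -0.33 to 0.24 for *Omd*, -0.22 to 0.12 for *Ogn* and -1.33 to 0.18 for *Podn*. IL-1β minus IL-6 was -0.23 to 0.20 for *Bgn*, -0.31 to 0.56 for *Aspn*, -0.46 to 0.50 for *Prelp* and -0.15 to 0.11 for *Ogn*. Of the list counts, 1156 stayed within 1.5 times and 68 moved. Dim probes (*Aspn*, *Fmod*, *Omd*, *Podn*) are limited by signal over background.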
